A study of Mus musculus with 4 samples.

Results

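Long intergenic noncoding RNAs (lincRNAs) are transcripts without a long open reading frame that are made from genes of their own, apart from protein-coding genes. Their promoters were read here as the sequence upstream of each gene that carries the type lincRNA in the GENCODE vM21 annotation of mouse and that has a methylation level in all 4 libraries of the series. The imprinted genes H19, Meg3, Rian and Mirg were left out by name. This gave 1305 promoters of 20152 with a level in all 4 libraries, of which 13593 belong to protein-coding genes. The annotation holds 5854 lincRNA genes, and 1400 had a promoter level in at least 1 library.

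The cells were C3H10T1/2, a mouse mesenchymal stem cell line derived from C3H embryos, which can be driven toward bone, cartilage or fat. They received either a non-targeting siRNA (NC) or siRNA against DNMT1 (siDNMT1) for 48 h, and were then left uninduced or kept for 3 days in osteoblast (OB) medium with ascorbic acid, beta-glycerophosphate and dexamethasone. Each of the 4 conditions (NC uninduced, siDNMT1 uninduced, NC OB and siDNMT1 OB) was sequenced as 1 bisulfite library, so no difference below has a replicate check and no p-value is given. The knockdown itself left no value in these files, since DNA alone was read.

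DNMT1 copies methylation from the parental to the new DNA strand after replication, and its loss lowers methylation mainly as cells divide. In mammalian cells, promoters that lie in CpG islands are as a rule kept free of methylation, while sequence poor in CpG is mostly methylated. Some lincRNAs have well known roles, such as Jpx in X chromosome inactivation, Malat1 in nuclear speckles and Neat1 in paraspeckles, but most are known only by an annotation number: 892 of the 1305 carry a symbol made of Gm and a number and 326 a symbol that ends in Rik.

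A promoter's level is the fraction of its CpG cytosines read as methylated, from 0 to 1, over the 2 kb upstream of the start. The sequences below show the end of such a region and the first bases of the gene: the 250 bases before and the first 50 bases from the GENCODE start. They run 5′ to 3′ on the strand of the gene, from GRCm38 (the assembly of mm10), with every CpG in capitals. The last 50 bases lie outside the 2 kb, and the levels do not tell which CpG were read. Jpx was the lowest of the characterised lincRNA genes described further on, and the other 4 are among the changed promoters described below (Mirt1 was added after its values were seen, as a characterised gene among them).
Jpx, chrX:103493306-103493605, plus strand: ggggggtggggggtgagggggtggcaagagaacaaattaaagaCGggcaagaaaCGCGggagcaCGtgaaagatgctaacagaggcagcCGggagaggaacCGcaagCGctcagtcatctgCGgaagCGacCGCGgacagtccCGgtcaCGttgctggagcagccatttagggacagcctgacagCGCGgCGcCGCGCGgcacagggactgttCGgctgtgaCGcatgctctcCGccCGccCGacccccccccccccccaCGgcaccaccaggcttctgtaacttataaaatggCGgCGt
Mirt1, chr19:53464747-53465046, minus strand: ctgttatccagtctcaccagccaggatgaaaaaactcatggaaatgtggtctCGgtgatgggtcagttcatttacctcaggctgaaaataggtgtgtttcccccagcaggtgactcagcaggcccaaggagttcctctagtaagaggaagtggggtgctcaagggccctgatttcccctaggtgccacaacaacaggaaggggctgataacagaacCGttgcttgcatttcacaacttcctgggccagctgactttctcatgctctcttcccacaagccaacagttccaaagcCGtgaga
Gm38832, chr6:72162599-72162898, plus strand: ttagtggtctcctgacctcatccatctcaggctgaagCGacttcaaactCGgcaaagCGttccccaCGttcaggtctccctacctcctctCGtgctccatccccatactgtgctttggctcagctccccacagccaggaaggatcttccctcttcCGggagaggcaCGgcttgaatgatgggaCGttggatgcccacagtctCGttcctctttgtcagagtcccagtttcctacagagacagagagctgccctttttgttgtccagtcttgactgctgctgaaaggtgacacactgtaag
Gm26697, chr2:126553613-126553912, minus strand: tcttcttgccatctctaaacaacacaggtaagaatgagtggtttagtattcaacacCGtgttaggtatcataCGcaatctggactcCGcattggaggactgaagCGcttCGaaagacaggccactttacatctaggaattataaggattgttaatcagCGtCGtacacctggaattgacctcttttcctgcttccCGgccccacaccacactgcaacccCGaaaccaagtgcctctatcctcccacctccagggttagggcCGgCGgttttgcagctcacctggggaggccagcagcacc
Gm32486, chr7:139296816-139297115, minus strand: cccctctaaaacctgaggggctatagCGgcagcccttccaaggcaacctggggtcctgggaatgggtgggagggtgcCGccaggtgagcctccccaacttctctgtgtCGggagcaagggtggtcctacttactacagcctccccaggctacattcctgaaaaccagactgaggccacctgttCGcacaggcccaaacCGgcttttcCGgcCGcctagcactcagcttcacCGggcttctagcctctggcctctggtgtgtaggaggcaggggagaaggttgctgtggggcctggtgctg
The Jpx stretch holds 27 CpG, whereas that of Mirt1 holds 3. Gm38832 has 9, Gm26697 has 11 and Gm32486 has 8. The mean level over the 4 libraries was 0.0131 at Jpx, 0.540 at Mirt1 and 0.629 at Gm38832, so the CpG-dense stretch belongs to the promoter that was almost free of methylation.

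The lincRNA promoters were more methylated than those of protein-coding genes in each of the 4 libraries. Uninduced NC cells had a median lincRNA promoter level of 0.408 (lower and upper quartile 0.111 and 0.627) and uninduced siDNMT1 cells one of 0.405, while the OB medians were 0.407 for NC and 0.389 for siDNMT1. The medians of protein-coding promoters were 0.110, 0.108, 0.0981 and 0.0912 in the same order. By the mean of the 4 libraries, 321 lincRNA promoters (24.6%) stood under 0.1, 460 (35.2%) from 0.1 to 0.5, 422 (32.3%) from 0.5 to 0.75 and 102 (7.82%) at 0.75 or over. Of protein-coding promoters 49.7% stood under 0.1 and 3.19% at 0.75 or over. At the low end were 4930517E14Rik, Gm5914, 2010015M23Rik, Gm43077 and 2010110E17Rik, all at 0.0143 or less in every library, and each starts at most 454 bases from the start of a protein-coding gene (Prdm10, Agrp, Srsf1, Fxr1 and N4bp1). The entry of N4bp1 itself had 0.669 in siDNMT1 OB cells, beside 0.0107 at 2010110E17Rik, so neighbouring entries need not cover the same cytosines. At the high end were Gm33301, Gm47916, Gm42808, Gm41335 and Zfp469, and Gm42808 was between 0.900 and 0.910 in the 4 libraries. The type recorded for a gene is that of this annotation release: Zfp469 and Rmrp, the RNA of the RNase MRP complex, are counted here although neither is usually called a lincRNA.

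**Figure D1:**
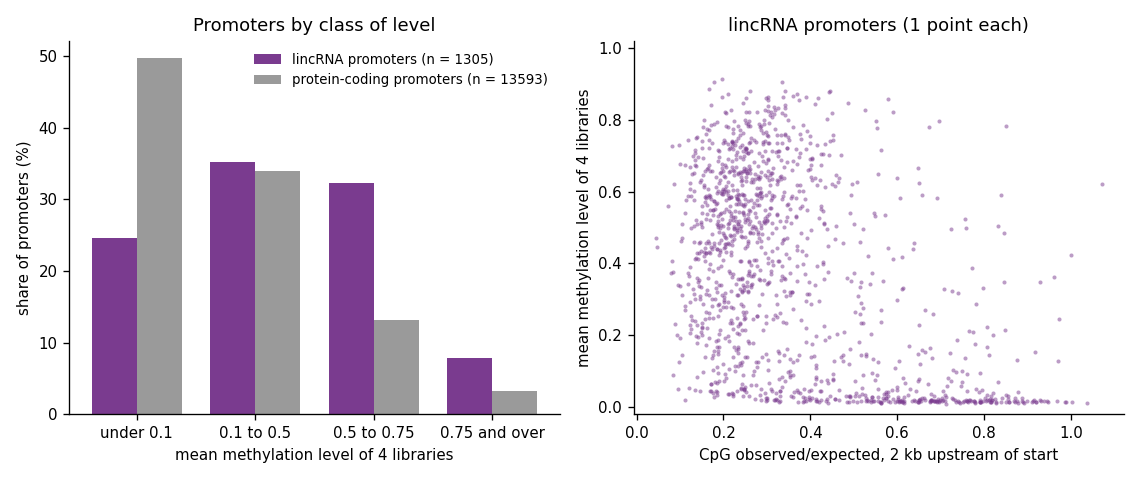
Left, share of promoters (%) in 4 classes of mean methylation level for 1305 lincRNA and 13593 protein-coding promoters. Right, mean level of the 4 libraries against the CpG observed/expected ratio of the 2 kb upstream window, 1 point per lincRNA promoter. Points with a ratio of 0.6 and over lie mostly along the bottom, with a median level of 0.0220.

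The level of a lincRNA promoter differed with its CpG content. Windows that overlapped a CpG island listed in the files numbered 401 (30.7%), and the median among them in uninduced NC cells was 0.0525, against 0.520 at the 904 without one. Among protein-coding promoters 64.7% had a listed island, with a median of 0.0479, and those without one had 0.323. The ratio of observed to expected CpG was under 0.2 at 271 lincRNA promoters, whose mean levels had a median of 0.456, and 0.6 or over at 206, with 0.0220. Between these, the median was 0.518 at the 631 from 0.2 to 0.4 and 0.187 at the 197 from 0.4 to 0.6. The level thus did not fall steadily with the ratio of observed to expected CpG. Spearman's rho between this ratio and the mean level was -0.40 over the 1305 promoters, a description across promoters of the same libraries. The lincRNA genes with no level in any library had a median of 16 CpG in the window, against 32 at the 1305, and a ratio of 0.174 against 0.293, so the CpG-poor lincRNA promoters are underrepresented in these data.

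Levels also differed with position. The windows of 278 lincRNA genes overlapped the upstream window of a protein-coding gene, and these had a median of 0.0463 in uninduced NC cells. A further 154 overlapped only the body of such a gene (median 0.403), and 873 overlapped neither (0.483). In 271 pairs of a lincRNA and an overlapping protein-coding promoter that also had 4 levels, 254 pairs were on opposite strands, and in 133 both mean levels were under 0.1. Such pairs share part of their cytosines, so their levels are not separate measurements. Windows of at least 50 percent repeat-masked sequence were few (73), with a median of 0.469 against 0.406 at the others. The X chromosome held 17 of the promoters, with a median of 0.410, and the autosomal median was 0.408.

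Before OB induction, siDNMT1 and NC cells differed little at lincRNA promoters. A change was counted from a difference of 0.1 between the libraries. With siDNMT1, 15 lincRNA promoters (1.15%) were lower and 19 (1.46%) were higher by at least that much, where 0.814% of all promoters were lower and 0.67% higher. The median difference (siDNMT1 minus NC) was -0.00170 (quartiles -0.0158 and 0.00782), and it turned to 0.00159 when each library was centred on its own median over all promoters. The shift of the library medians (-0.00329) was larger in size than the median difference over all promoters (-0.000713), so centring turns that one positive too. At a threshold of 0.05, 78 were lower and 56 higher. The changed promoters had a median of 22 CpG in the window, against 33 at those that changed less.

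In uninduced cells the 5 leading falls with siDNMT1 were at promoters that overlapped no protein-coding gene body or upstream window, as did 66.9% of all lincRNA promoters. Gm32486 went from 0.474 in NC cells to 0.238 in siDNMT1 cells. Gm11766, whose start lies 4252 bases from that of Baiap2, went from 0.558 to 0.353. Gm47564 went from 0.778 to 0.607, Gm12958 from 0.474 to 0.304 and 5730460C07Rik from 0.570 to 0.407. None of these 5 windows held a listed island, nor did 69.3% of all lincRNA windows, and the 5 had between 17 and 41 CpG. Most windows with a listed island started too low for such falls, with a median of 0.0525 in uninduced NC cells. Among the leading rises, Gm26697, which starts 1255 bases from Slc27a2 (a fatty acid transport protein gene), went from 0.250 to 0.525, 1810012K08Rik from 0.567 to 0.813 and D030018L15Rik from 0.5 to 0.709. Gm5468, in a shared upstream region with Basp1, went from 0.0417 to 0.250 and Gm17203, with 9 CpG in its window, from 0 to 0.2. The Gm5468 level was 0.05 and 0.0526 in NC and siDNMT1 OB cells and that of Gm17203 was 0 in both, so at either promoter the uninduced siDNMT1 library stood apart from the other 3.

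After 3 days of OB induction, a larger share of lincRNA promoters than in uninduced cells lay below the NC level, as did a larger share of all promoters. In OB cells 23 (1.76%) were lower and 20 (1.53%) were higher by at least 0.1 with siDNMT1, where 1.4% of all promoters were lower and 0.789% higher. The level was below that of NC at 67.9% of lincRNA promoters, against 55.7% in uninduced cells, and over all promoters these shares were 64.0% and 53.2%. The median difference was -0.00770 (quartiles -0.0271 and 0.00251), and it turned to 0.00234 when each library was centred on its median, which left 17 lower and 23 higher. Over all promoters the median difference was -0.00371, smaller in size than the shift of the library medians (-0.0100), so centring turns it positive too. The split of changed promoters depended on the threshold: at 0.05, 110 were lower and 56 higher.

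The largest siDNMT1 differences at lincRNA promoters were in OB cells. Gm32486 was at 1.00 with NC and at 0 with siDNMT1, and Gm47510 at 0.435 and 0. Gm26888, inside the body of Tbc1d16, was at 0.0588 with NC and at 0.8 with siDNMT1. Before induction the NC and siDNMT1 levels were 0.474 and 0.238 at Gm32486, 0.414 and 0.541 at Gm47510, and 0.630 and 0.567 at Gm26888, so each OB difference rests on a library at one end of the scale. The number of reads behind these levels is unknown, and 10 of the 1305 promoters had a level of exactly 0 or 1 in at least 1 library. Less extreme falls were at 4930572G02Rik (0.464 to 0.2), Gm26750 (0.455 to 0.2) and Gm13832 (0.286 to 0.0692). Rises were at 1700128I11Rik (0.5 to 0.743), Gm29362 (0.6 to 0.785), Gm26644 (0 to 0.167) and again Gm26697 (0.353 to 0.639).

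**Figure D2:**
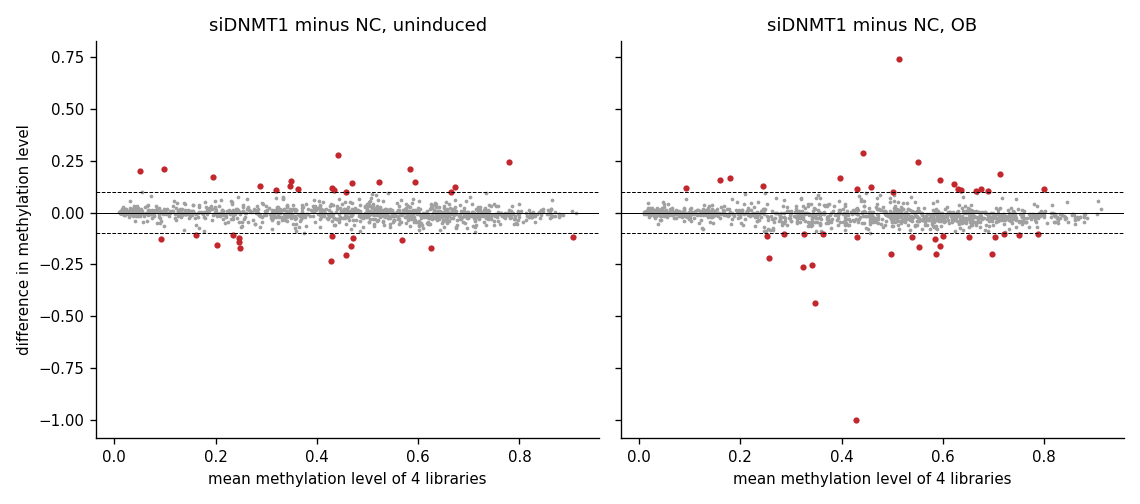
Difference in methylation level (siDNMT1 minus NC) against the mean level of the 4 libraries at 1305 lincRNA promoters, in uninduced (left) and OB cells (right). Red points differ by at least 0.1 (dashed lines): 15 lower and 19 higher on the left, 23 lower and 20 higher on the right.

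Few lincRNA promoters changed with siDNMT1 both before and after induction. The 2 siDNMT1 comparisons share no library. Gm32486 was the 1 promoter at least 0.1 lower in both (0.129% of all promoters were), and 3 were higher in both, where 0.109% of all promoters were. These were Gm26697, with differences of 0.28 and 0.29, Gm45163, with 0.408 and 0.510 before and 0.395 and 0.516 after induction, and Gm48089, with 0.667 and 0.767 before and 0.563 and 0.667 after it. Gm48089, 4665 bases from the start of Dusp6 (a MAP kinase phosphatase gene), stands at the threshold. Opposite changes of at least 0.1 were at 8 lincRNA promoters, where 0.248% of all promoters had them.

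The size of the siDNMT1 difference followed the level of the promoter, as it did over all promoters. In OB cells the median difference was -0.000201 at lincRNA promoters under 0.1, -0.00794 from 0.1 to 0.5, -0.0202 from 0.5 to 0.75 and -0.0185 at 0.75 and over. Over all promoters the medians of the same classes were -0.000155, -0.0101, -0.0209 and -0.0195. In uninduced cells the lincRNA medians were 0.000434, -0.00215, -0.00836 and -0.00789, beside 0.000741, -0.00331, -0.00670 and -0.00983 over all promoters. At 0.75 and over, 88.2% of lincRNA promoters were below NC in OB cells and 73.5% in uninduced cells, beside 84.7% and 75.02% of all promoters in that class. The lower pooled median of lincRNA promoters in OB cells (-0.00770, against -0.00371 over all promoters) thus stands beside class medians that were close to those of all promoters. Windows with a listed island had a median difference of -0.00134 in OB cells, and those without one had -0.0155.

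**Figure D3:**
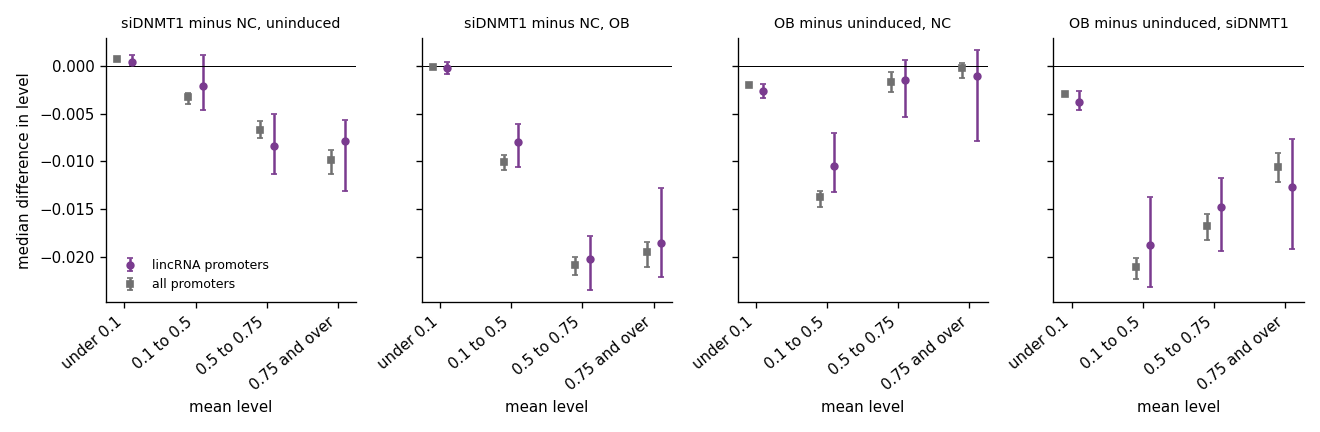
Median difference in methylation level in 4 classes of mean level for lincRNA promoters (circles) and all promoters (squares), 1 panel per comparison. Bars are 95% intervals of the median from order statistics, which treat promoters as independent and hold no variation between cultures. In the second panel the lincRNA medians go from -0.000201 under 0.1 to -0.0202 from 0.5 to 0.75.

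After OB induction a set of lincRNA promoters was lower with either siRNA. From uninduced to OB cells, 39 lincRNA promoters (2.99%) were at least 0.1 lower and 15 (1.15%) higher with NC, where 1.41% of all promoters were lower and 0.759% higher. With siDNMT1, 58 (4.44%) were lower and 23 (1.76%) higher, where 2.33% and 1.03% of all promoters were. The median differences were -0.00354 with NC and -0.00939 with siDNMT1, which turned to 0.0136 and 0.0145 when each library was centred on its median. Over all promoters they were -0.00320 and -0.00654, smaller in size than the shifts of the library medians (-0.0171 and -0.0239). Centring thus turns the medians over all promoters positive too. These comparisons share no library either. In both of them 24 lincRNA promoters (1.84%) were at least 0.1 lower, where 0.576% of all promoters were, and 3 were higher, where 0.194% of all promoters were. Centring each library changed these to 16 lower and 7 higher, and the counts of the single comparisons to 30 lower and 21 higher with NC and 39 and 28 with siDNMT1. A further 5 changed in opposite directions in the 2 arms, where 0.194% of all promoters did. From a mean level of 0.5 to 0.75, 13 of 422 lincRNA promoters (3.08%) were lower in both, against 28 of 3778 promoters (0.741%), and from 0.1 to 0.5 it was 10 of 460 (2.17%) against 82 of 6661 (1.23%). Both OB libraries differ from both uninduced libraries in culture time and medium, which cannot be told apart.

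Of these 24 promoters 0 held a listed CpG island, 22 overlapped no protein-coding gene body or upstream window, and they lay on 13 chromosomes. Among all lincRNA promoters 69.3% held no listed island and 66.9% overlapped neither. In uninduced NC cells the median was 0.0525 with a listed island and 0.0463 with an overlapping protein-coding upstream window. Most such promoters thus started too low to fall by 0.1, so the island and overlap counts partly follow from the selection. The median level of the 24 was 0.601 in NC and 0.599 in siDNMT1 uninduced cells, and 0.371 and 0.434 in OB cells. That the OB medians were lower follows from the selection. Gm38832 (chromosome 6, 72162849 to 72167707), whose sequence is printed above, stood at 0.797 (NC) and 0.793 (siDNMT1) before induction and at 0.407 and 0.521 after it. Gm807 (chromosome 13, 99100706 to 99107580) had 0.792 and 0.756 before and 0.336 and 0.492 after it. Gm49786, at 34398 bases from the start of the Wnt receptor gene Fzd6, had 0.582 and 0.583, then 0.263 and 0.327. In each of the 3 both OB libraries lay below both uninduced ones, which largely follows from the selection. The siDNMT1 OB level was the higher of the OB pair at these 3, but the lower at Gm47216, 9230111E07Rik and Gm29501 below. Gm47216 went from 0.430 and 0.377 to 0.161 and 0.142, Gm36535 from 0.627 and 0.610 to 0.335 and 0.435, and 9230111E07Rik from 0.661 and 0.644 to 0.485 and 0.369. Gm29501 went from 0.261 and 0.256 to 0.0455 and 0, and Gm33301 from 1.00 in both uninduced libraries to 0.815 and 0.833.

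At Mirt1 the intron entry was lower after induction as well. Mirt1 (chromosome 19, 53443230 to 53464796, minus strand), named for myocardial infarction, had promoter levels of 0.628 and 0.639 before induction with NC and siDNMT1 and of 0.459 and 0.434 after it. Its intron entry went from 0.646 and 0.649 to 0.529 and 0.505, and its exon entry from 0.661 and 0.662 to 0.645 and 0.596. At Gm28055 (chromosome 1) the promoter went from 0.245 and 0.226 to 0.0218 and 0.0349. The nearest protein-coding gene had a promoter level in all 4 libraries for 20 of the 24, and over those 20 its median OB minus uninduced difference was -0.00221 with NC and -0.00474 with siDNMT1. Of the 24 genes, 17 had intron entries in all 4 libraries, with median differences of -0.0119 and -0.0198. Of these entries 8 were lower in both arms, 1 of them by at least 0.1. Exon entries were at hand for 16, with -0.0401 and -0.0350, and 10 were lower in both arms, 2 of them by at least 0.1. The shares of all intron and exon entries lower in both arms were not computed, so these counts have no reference.

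**Figure D4:**
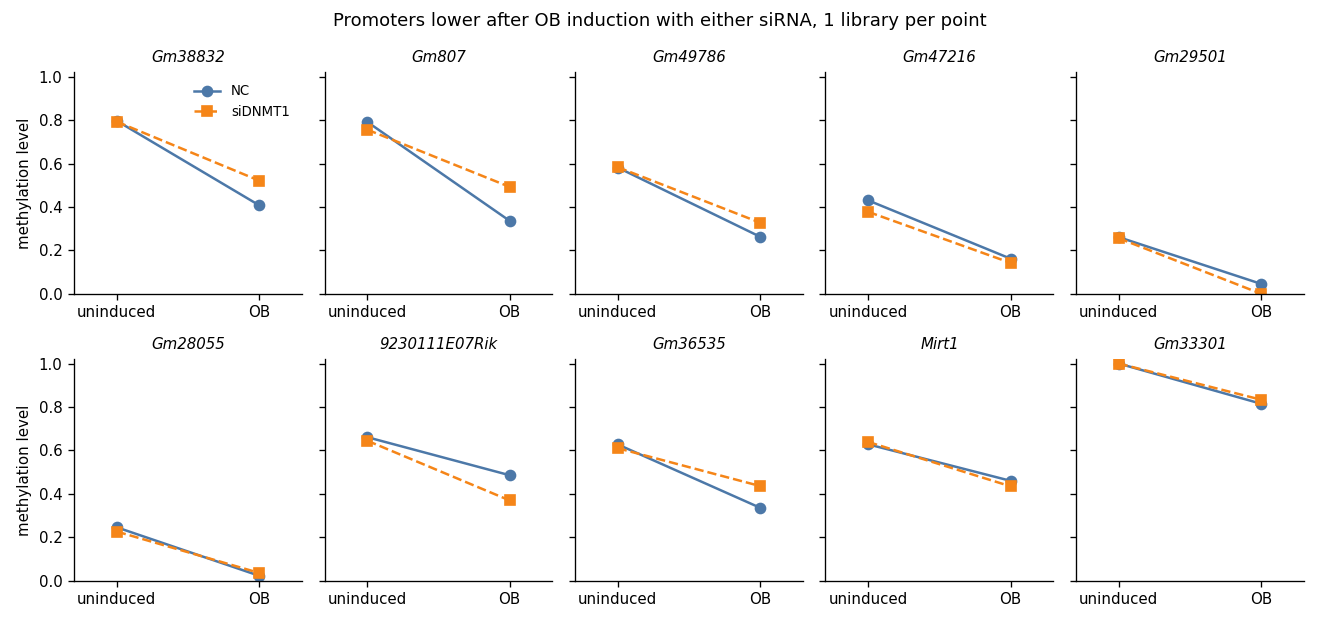
Methylation level of the 10 lincRNA promoters with the largest falls after OB induction in both siRNA arms, ranked by the smaller of the 2 falls. Each point is 1 library: circles and solid lines are NC, squares and dashed lines siDNMT1. Gm38832 goes from 0.797 to 0.407 with NC and from 0.793 to 0.521 with siDNMT1.

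The 3 lincRNA promoters that were higher after induction in both arms were 1110036E04Rik, Gm45335 and Gm26697. 1110036E04Rik, at 27770 bases from the start of Smad6 (an inhibitor of BMP signaling), had 0.425 and 0.485 before and 0.563 and 0.608 after induction. Gm45335 had 0.707 and 0.75, then 0.815 and 0.929. Between the NC libraries alone, the leading rises were Gm32486 (0.474 to 1.00), 1810012K08Rik (0.567 to 0.850) and Gm38839 (0.518 to 0.675), and the leading falls were Gm26888 (0.630 to 0.0588), Gm807 and Gm12958 (0.474 to 0.0600). Gm12958 was lower with siDNMT1 as well, at 0.304 and 0.156.

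Of the lincRNA genes on the chosen lists of characterised genes, 35 were among the 1305, and 0 of them changed by at least 0.1 with siDNMT1 in either comparison. With 0.814% and 1.4% of all promoters lower and 0.67% and 0.789% higher in those comparisons, a list of 35 is too short to be set apart by that count. Their mean levels had a median of 0.0987, with 18 under 0.1 and 6 at 0.5 or over. After OB induction 1 was lower by at least 0.1 with NC and 2 with siDNMT1, and 0 were higher. Most promoters in the list of abundant nuclear and housekeeping lincRNAs, which also holds Miat and Trp53cor1, had low levels. Malat1 was between 0.0152 and 0.0206 and Neat1 between 0.0116 and 0.0176. These were the 2 genes among the 1305 from 6 listed for mesenchymal and bone cells, of which 3 carried the type lincRNA. Pvt1, the neighbour of Myc, was between 0.0670 and 0.0762. Lockd, downstream of the cell cycle inhibitor gene Cdkn1b, was between 0.0149 and 0.0161. In that list of 9, 8 had a mean level under 0.1 and the ninth, Miat, had 0.172 (NC) and 0.2 (siDNMT1) before induction and 0.145 and 0.151 after it. Trp53cor1 (lincRNA-p21, a p53 target beside Cdkn1a) had 0.133 and 0.0816 before and 0.0909 and 0.0526 after induction. It was lower with siDNMT1 in both comparisons and lower in OB than in uninduced cells with either siRNA, each time by less than 0.1.

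The 2 genes of X chromosome inactivation with a level were also low. Jpx, an activator of Xist, was at 0.0127 and 0.0179 in uninduced and at 0.0121 and 0.00965 in OB cells (NC, then siDNMT1), and Ftx between 0.0413 and 0.0532. Xist had no level in all 4 libraries, while Firre and Tsix carried another gene type. Hosts of small nucleolar RNAs were represented by 6 genes, of which Snhg6, Snhg10, Snhg18 and Epb41l4aos were under 0.1 in every library. Snhg20 was the most methylated of them, at 0.476 and 0.563 before and 0.5 and 0.528 after induction. Of the host genes of microRNAs, Mir17hg (the miR-17-92 cluster) was between 0.0137 and 0.0153, Mir155hg between 0.0689 and 0.0813 and Mir142hg, a blood cell gene, between 0.206 and 0.226. The neural Mir9-3hg had 0.224 and 0.213, then 0.181 and 0.192. Mirt1 was filed in that list although it is no microRNA host, and it was the 1 entry of the list with a change.

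Developmental lincRNAs stood higher, with a median of 0.495 over 5 genes. The list had 31 genes, of which 11 carried the type lincRNA. Hottip (chromosome 6, 52262775 to 52267603), at the Hoxa13 end of the HoxA cluster, went from 0.543 and 0.539 to 0.461 and 0.438 after induction. Its window overlaps the upstream window of Hoxa13. The OB minus uninduced difference of Hottip was -0.083 with NC and -0.10 with siDNMT1, and the latter passes the threshold. Rmst, a neural lincRNA, was between 0.704 and 0.744, Lhx1os between 0.482 and 0.515, Otx2os1 between 0.345 and 0.395 and Pantr1, beside Pou3f3, between 0.131 and 0.168. The windows of Lhx1os and Pantr1 overlap the upstream windows of Lhx1 and Pou3f3, and that of Otx2os1 overlaps the body of Otx2. Transcripts first described in embryonic stem cells (Platr) numbered 6 and spread from Platr23, with a mean of 0.0174, to Platr26, with 0.718. Platr23 starts 251 bases from Zfp281 on a window with a listed island, while Platr22, on the other side of that gene, went from 0.650 and 0.644 to 0.608 and 0.573. No member of the list of other imprinted lincRNAs carried the type lincRNA.

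**Figure D5:**
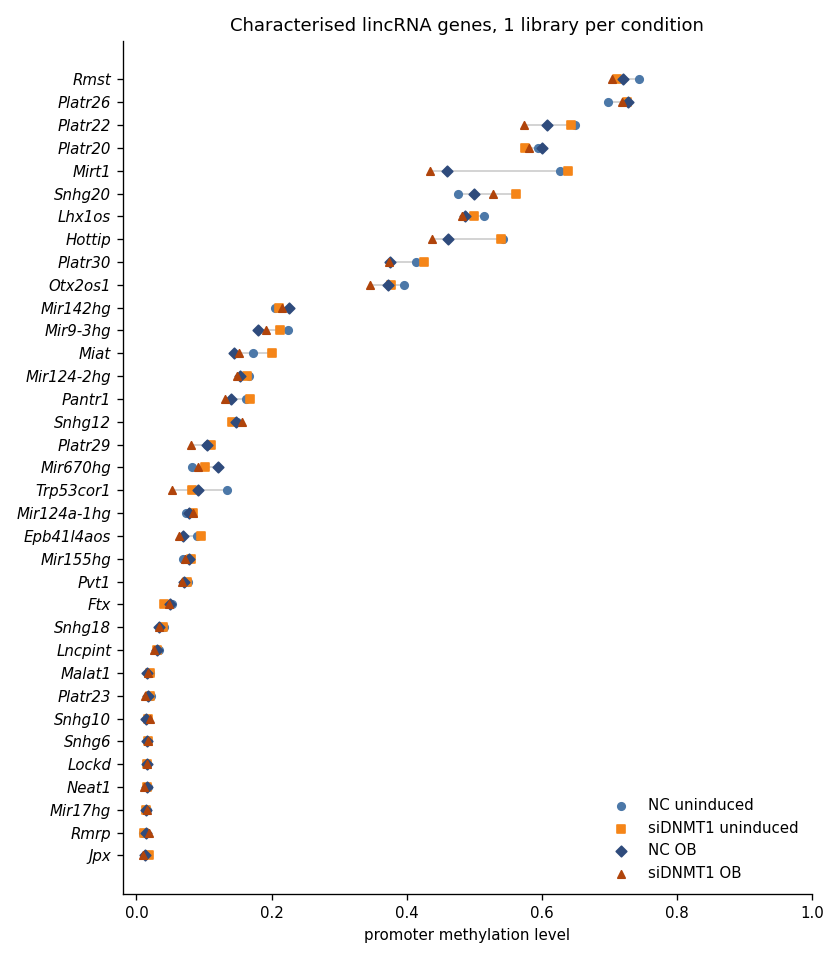
Promoter methylation level of the 35 characterised lincRNA genes in each of the 4 libraries, ordered by mean level, 1 library per symbol and a grey line from the lowest to the highest. Most lie under 0.25 with little spread, and Mirt1 shows the widest range, from 0.434 to 0.639.

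The bodies of the genes gave a second readout of the same libraries. Exon entries in all 4 libraries were listed for 676 of the lincRNA genes and intron entries for 693, with median levels of 0.379 and 0.478 in uninduced NC cells, where the promoters of the same genes had 0.332 and 0.406. In OB cells the median siDNMT1 minus NC difference was -0.00854 in exons and -0.0157 in introns, beside -0.00641 and -0.00847 at the promoters of those genes. By at least 0.1, 16 exon entries (2.37%) were lower and 13 (1.92%) higher, where 1.52% and 0.774% of all 20401 exon entries were, and the promoters of these genes split 9 and 12. Of the intron entries 10 (1.44%) were lower and 6 (0.866%) higher, where 1.31% and 0.567% of all 19757 intron entries were, and the promoters split 11 and 11. From uninduced to OB cells with siDNMT1, 37 exon entries (5.47%) were lower and 9 (1.33%) higher, beside 2.56% and 1.04% of all exon entries and 32 and 15 promoters. With NC the exon counts were 20 (2.96%) and 11 (1.63%), beside 1.37% and 0.794% of all exon entries and 24 and 8 promoters. Intron entries split 30 (4.33%) and 6 (0.866%) with siDNMT1, beside 2.32% and 0.962% of all intron entries and 35 and 12 promoters. With NC they split 16 (2.31%) and 6 (0.866%), beside 0.987% and 0.779% of all intron entries and 20 and 7 promoters.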

How the data were processed

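Bisulfite libraries of C3H10T1/2 cells, 1 for each of 4 conditions, were grouped by their labels. According to the study's methods and the labels, DNA was sonicated and treated with bisulfite (the libraries are nonetheless named reduced representation), reads were filtered with Trimmomatic (version 0.36) and aligned to mm10 with Bismark (version 0.16.3). The authors deposited the methylated CpG fraction of each region, without read counts, so depth is unknown and single levels carry no interval. Between 155398 and 159705 regions, and between 1339 and 1364 lincRNA promoters, were listed per library.

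Gene types, symbols and starts came from GENCODE vM21 (21104 of 21121 promoter IDs matched), and CpG and repeat masking of the 2 kb upstream of the gene start from the RefSeq copy of GRCm38. The start used by the authors is not given in the sources used here, and the CpG counts refer to the GENCODE start. Repeat entries carry no genome position, so soft-masked bases replaced the planned overlap with them. Of the 1305 windows, 20 overlapped the next one. A change was a difference of at least 0.1, differences were taken over promoters with 4 levels, and functions were tested on simulated data. Named are members of lists of characterised lincRNAs, at most 5 per direction changed in both siDNMT1 comparisons, the 5 leading falls and rises in each, the leading 3 per direction between the NC libraries, up to 6 opposite changes, and the 5 highest and 5 lowest. Promoters changed after OB induction in both arms, and Mirt1 for its sequence, were added after their values were seen. Members and lists were chosen with earlier results of these data known. Tables were computed in Python (3.11.15) with pandas (version 2.3.3), numpy (version 2.4.6) and scipy (version 1.17.1), and plots drawn in matplotlib (version 3.10.9).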

Additional observations from a re-analysis of the deposited data

Results flagged for a closer look

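At 8 of the lincRNA promoters named above or here the siDNMT1 and NC libraries, or the OB and uninduced libraries, differed by at least 0.1 in opposite directions in the 2 comparisons of the same kind. These are not the same 8 as those with opposite siDNMT1 changes. Gm26888 and Gm32486 met this only between the OB and uninduced libraries. With 1 library per condition the difference between the effects was not tested. The change in the siDNMT1 minus NC difference from uninduced to OB cells was 0.80 at Gm26888 and -0.76 at Gm32486, both with levels near the ends of the scale in OB cells. It was -0.56 at Gm47510, whose siDNMT1 OB level was 0. At D030018L15Rik it was -0.34 (NC and siDNMT1 levels 0.5 and 0.709 uninduced, then 0.629 and 0.5 in OB cells), at Gm38839 -0.31 (0.518 and 0.667, then 0.675 and 0.514) and at Gm44934 -0.24 (0.394 and 0.514, then 0.467 and 0.348). At A430105J06Rik, in a shared upstream region with Rrp15, it was 0.25 (0.156 and 0.0270, then 0.0333 and 0.152), and at F630042J09Rik, beside Zfp458, it was 0.22 (0.472 and 0.361, then 0.386 and 0.5).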

How the results depend on the processing

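Of 121 recomputed values, 86 stayed close to those reported, 31 moved and 4 changed sign. The 4 were the median differences once each library was centred on its median over all promoters: 0.00159 and 0.00234 for siDNMT1 minus NC in uninduced and OB cells, 0.0136 and 0.0145 for OB minus uninduced with NC and siDNMT1. The library medians differ by -0.00329, -0.0100, -0.0171 and -0.0239 in these comparisons, and the 24 other recomputed medians were negative. Centring raises every difference of a comparison by the same amount. The medians over all promoters turn positive with it as well, so the sign changes are not particular to lincRNA promoters. Over promoters whose mean level was 0.05 or more the medians were -0.00506, -0.0134, -0.00619 and -0.0157. Without overlap with protein-coding genes they were -0.00412 and -0.0129 with siDNMT1 in uninduced and OB cells, 12 promoters were higher in OB cells, and the median NC level was 0.483. At a threshold of 0.05, lower and higher promoters numbered 78 and 56 (siDNMT1, uninduced), 110 and 56 (siDNMT1, OB), 120 and 60 (OB, NC) and 185 and 55 (OB, siDNMT1). At 0.2 they numbered 2 and 5, 7 and 3, 13 and 2, and 15 and 3. Lower and higher after induction in both arms were 67 and 16 at 0.05, 5 and 0 at 0.2, and 16 and 7 after centring. With at least 20 CpG in the window, 9 were lower with siDNMT1 in uninduced cells and 15 higher after induction with siDNMT1. Leaving out levels of exactly 0 or 1, an alternative chosen after seeing the data as were those of both arms, moved no count by over 1.5 times. No paired analysis was possible because each condition has 1 library.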
